A study of Mus musculus with 4 samples.

Results

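Tropomyosin genes and their splice isoforms were followed through the cells of the E18 mouse brain. Members were every row of the symbols Tpm1, Tpm2, Tpm3 and Tpm4, which are 4 of the 27998 genes of the Illumina tables and 22 of the 31986 isoforms of the Nanopore tables. The cells came from a single suspension of cortex, hippocampus and subventricular zone of C57BL/6 mouse brain at E18, with no treatment, genotype or time contrast. One cell emulsion was split into an aliquot of 190 cells (aliquot 1) and an aliquot of 951 cells (aliquot 2), and the cDNA of each was read as short 3′ reads (Illumina) and as full-length molecules (Nanopore), which gives 4 libraries. A unique molecular identifier (UMI) marks 1 captured RNA molecule, so that PCR copies are counted once. Cells with at least 1400 genes detected were kept, 186 in aliquot 1 and 935 in aliquot 2, 1121 of 1141 in all. The aliquots are technical replicates and nothing in the labels says that they came from separate animals, so each p-value here measures only the spread between 2 aliquots of 1 suspension.

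Tropomyosins are rod-shaped coiled-coil proteins that lie end to end along both sides of actin filaments and set which myosins, cofilin and other partners can reach the filament. The family makes several proteins by choice of promoter (exon 1a for long, exon 1b for short proteins). Further choices are an internal exon pair (6a or 6b) and the last coding exon (9a, 9b, 9c or 9d). Among the isoforms seen here, Tpm1 alone had all of these choices, and Tpm4 had 1 isoform. The 9c ending is known from brain tropomyosins. In neurons these proteins are placed differently in the growth cone, the axon and the synapse. Tpm1 and Tpm2 are best known from muscle, and Tpm3 and Tpm4 from the cytoskeleton of non-muscle cells.

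In GRCm38 (mm10), Tpm1 lies at chr9:67022590-67049406 on the minus strand, Tpm2 at chr4:43514711-43523765 on the minus strand, Tpm3 at chr3:90072649-90100902 on the plus strand and Tpm4 at chr8:72134975-72153142 on the plus strand. The coding bases of the exons on which the isoform results turn are given 5′ to 3′ on the strand of the gene, without the stop codon, from the Gencode vM21 transcripts. The 9c exons of Tpm1 (chr9:67024495-67024565, minus strand) and Tpm3 (chr3:90098375-90098451, plus strand) are shown together because both genes used them in neurons. Capitals mark the bases that are identical at the same position, counted from the first base of each exon, and 49 of the 71 bases of the shorter exon were (69.0%).
Tpm1 exon 9c: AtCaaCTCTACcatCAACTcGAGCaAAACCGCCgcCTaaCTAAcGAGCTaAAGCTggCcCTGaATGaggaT
Tpm3 exon 9c: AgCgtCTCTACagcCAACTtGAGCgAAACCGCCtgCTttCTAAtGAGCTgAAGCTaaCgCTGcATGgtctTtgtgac

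The other last coding exons of Tpm1 are shown for comparison with 9c. They are 9a (chr9:67029664-67029742), 9b (chr9:67028079-67028167) and 9d (chr9:67023362-67023441), all on the minus strand, and Tpm3 exon 9d (chr3:90099528-90099607, plus strand) is the usual ending of that gene. Capitals mark identity with exon 9c of the same gene, position by position from the first base. That identity was 45.1% for Tpm1 9a, 22.5% for 9b and 42.3% for 9d, and 39.0% for Tpm3 9d, so the 9c exons of the 2 genes were closer to each other than to these alternatives.
Tpm1 exon 9a: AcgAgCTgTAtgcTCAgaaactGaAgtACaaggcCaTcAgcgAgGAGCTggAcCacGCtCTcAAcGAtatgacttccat
Tpm1 exon 9b: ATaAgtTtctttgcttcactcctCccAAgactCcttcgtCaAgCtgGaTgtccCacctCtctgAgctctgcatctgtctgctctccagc
Tpm1 exon 9d: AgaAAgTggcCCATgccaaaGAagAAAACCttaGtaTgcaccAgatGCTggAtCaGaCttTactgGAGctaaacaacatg
Tpm3 exon 9d: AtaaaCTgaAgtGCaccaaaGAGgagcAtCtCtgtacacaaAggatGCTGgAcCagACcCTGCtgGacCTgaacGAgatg

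Exons 6a (chr9:67032466-67032541) and 6b (chr9:67031951-67032026) of Tpm1 are a mutually exclusive pair of equal length, shown because radial glia and neurons used them in different shares. Capitals mark the 43 of 76 bases (56.6%) that are the same in both.
Tpm1 exon 6a: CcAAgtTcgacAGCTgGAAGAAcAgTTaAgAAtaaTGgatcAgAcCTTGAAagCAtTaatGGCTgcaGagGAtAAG
Tpm1 exon 6b: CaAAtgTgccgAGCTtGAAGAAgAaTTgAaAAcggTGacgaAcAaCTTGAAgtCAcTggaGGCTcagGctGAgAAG

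Exon 6b was the more alike between the genes, with 75.0% of bases shared by Tpm1 6b and Tpm3 6b and 65.8% by Tpm1 6a and Tpm3 6a. Tpm4 has a single exon 6, which was 71.1% identical to Tpm1 6b and 53.9% identical to Tpm1 6a. The annotated 3′ ends of the Tpm1 isoforms fall into separate places. Tpm1-203 and Tpm1-205 (9a) end at 67027892, whereas Tpm1-209 (9c) ends at 67022593, next to the end of the 9d isoform Tpm1-211 at 67022592.

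The kept cells held 1809081 Illumina and 993220 Nanopore UMIs in aliquot 1, and 8295650 and 4889148 in aliquot 2. Illumina genes gave 7 cell classes, named from marker genes after the tropomyosins and the actin-related genes listed further on had been left out of the clustering. These were radial glia-like cells (20 and 86 cells in the aliquots), cycling radial glia-like cells (24 and 94), immature glutamatergic-like (47 and 236), mature glutamatergic-like (43 and 237), immature GABAergic-like (31 and 141) and mature GABAergic-like neurons (17 and 128), and Cajal-Retzius-like cells (4 and 13), which were too few for the tests. Radial glia are the stem cells of the developing cortex, and all 12 of their markers were raised in the radial glia-like cluster, including Slc1a3, Fabp7 and Vim. Some glutamatergic names had less support. In a cluster of 143 of the 280 mature glutamatergic-like cells, 3 of 8 markers were raised (mean log2 fold 0.07). In a cluster of 83 of the 283 immature ones, 4 of 8 were (0.34). The most raised genes of the immature GABAergic-like cluster began with Ebf1, Isl1, Zfhx3 and Foxp2, those of the mature one with Sst, Maf, Nxph1 and Npy. Whether these GABAergic classes are stages of a single lineage was not tested. Comparisons of mature with immature neurons may therefore also compare cell types. The 2 radial glia-like classes are called radial glia together, and the 4 neuronal classes neurons. The neurons include a cluster of 51 immature glutamatergic-like cells that also had raised intermediate progenitor markers. Its mean log2 fold was 1.28 for its own list and 1.00 for intermediate progenitors. In all, 13 barcodes occurred in both aliquots. No cell carried 3 or more endothelial, fibroblast or choroid plexus markers. In contrast, 7 radial glia-like and 4 cycling cells carried at least 3 markers of microglia, mural cells or the oligodendrocyte lineage. All of these cells were in aliquot 2. The 3 erythroid markers were left out of this count. They summed to between 372 and 582 CPM (counts-per-million, relative to all UMIs of the class and aliquot) in every class and aliquot. The 5 microglia markers summed to 309 CPM in radial glia-like cells of aliquot 2 and to 0 in those of aliquot 1. In the same order, the 6 mural markers summed to 141 and 12.2 CPM. The 4 oligodendrocyte lineage markers summed to 66.5 and 77.0 CPM, and to 158 and 135 CPM in cycling cells, again with aliquot 2 first. Over the neuronal sums of both aliquots none of these 3 lists exceeded 11.7. The cycling class rests on cell cycle markers. Its 12 radial glia markers summed to 3346 and 3111 CPM, against 16588 and 20126 CPM in radial glia-like cells. At least 3 immature GABAergic markers were carried by 20 of its 24 and 56 of its 94 cells. The 8 intermediate progenitor markers summed to 1114 and 1191 CPM in radial glia-like and to 898 and 1101 CPM in cycling cells. In immature glutamatergic-like cells they summed to 606 and 517 CPM. At least 3 of them were carried by 12 of 20 and 47 of 86 radial glia-like cells. Results for radial glia as a group therefore also cover cells with intermediate progenitor markers and dividing cells that may be other progenitors.

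Tpm3 was the most abundant family member in every class. Levels are given in CPM. Each captured molecule is counted once at its 3′ end, so that a transcript does not gain counts with its length and no length correction applies. Of the tropomyosin UMIs of radial glia, 42.8% were Tpm3, 33.9% Tpm4, 18.5% Tpm1 and 4.8% Tpm2 (of 1337 UMIs). In neurons Tpm3 made up 71.8% (95% exact binomial interval, counting error only, 70.0 to 73.5% of 2576 UMIs), Tpm1 15.6%, Tpm4 11.9% and Tpm2 0.7%. The family was thus shared mainly by Tpm3 and Tpm4 in radial glia and held mostly by Tpm3 in neurons.

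Tpm1 stood at 93.2 CPM in aliquot 1 and 112 CPM in aliquot 2 of radial glia-like cells, and at 67.6 and 77.5 CPM in cycling cells. In neurons it stood at 60.1 and 58.3 CPM in immature glutamatergic-like, 49.8 and 44.6 in mature glutamatergic-like, 81.9 and 65.7 in immature GABAergic-like and 93.3 and 69.8 in mature GABAergic-like cells. The order of the class means was radial glia-like (102 ± 13.1, SD, n = 2 aliquots), mature GABAergic-like (81.5 ± 16.7), immature GABAergic-like (73.8 ± 11.4), cycling (72.6 ± 6.98), immature glutamatergic-like (59.2 ± 1.28) and mature glutamatergic-like (47.2 ± 3.66). Neighbours among the first 4 of these classes overlapped in their aliquot values, the last 3 classes did not, and the sums of radial glia and neurons as a whole overlapped. The mature GABAergic-like value of aliquot 1 rests on 9 UMIs.

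Tpm2 was nearly absent from the 4 neuronal classes tested. It stood at 24.3 and 20.4 CPM in radial glia-like and 38.6 and 22.8 CPM in cycling cells. The sums of these neuronal classes held 0 or 1 UMI in aliquot 1 and at most 8 UMIs in aliquot 2, so their highest level was 4.28 CPM. The few Cajal-Retzius-like cells, not among these classes, had 0 and 23.9 CPM, from 0 and 3 UMIs. The second value lies within the range of radial glia-like cells. Immature GABAergic-like cells had no Tpm2 UMI in either aliquot, which allows up to 21.6 and 4.49 CPM (upper bound of the 95% Poisson interval). Sums of radial glia and of the 4 neuronal classes tested did not overlap.

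Tpm3 stood at 190.4 and 199 CPM in radial glia-like cells and at 222 and 230.5 CPM in cycling cells. Among the 6 classes tested it was highest in mature glutamatergic-like cells, at 289 and 291 CPM, and lowest in mature GABAergic-like cells, at 156 and 195 CPM. The few Cajal-Retzius-like cells had 378 and 207 CPM, from 16 and 26 UMIs. Immature glutamatergic-like cells (223 and 240.0 CPM) and immature GABAergic-like cells (211 and 231 CPM) lay between these and overlapped the cycling cells, and those of the lowest class overlapped the radial glia-like cells.

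Tpm4 stood at 93.2 and 136 CPM in radial glia-like cells and at 161 and 226 CPM in cycling cells. The 8 neuronal sums lay between 33.3 and 51.3 CPM, all below the 4 radial glia sums. Among neurons the classes overlapped, from 45.7 ± 7.97 CPM (SD, n = 2) in immature glutamatergic-like to 37.4 ± 5.79 in mature GABAergic-like cells.

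**Figure D1:**
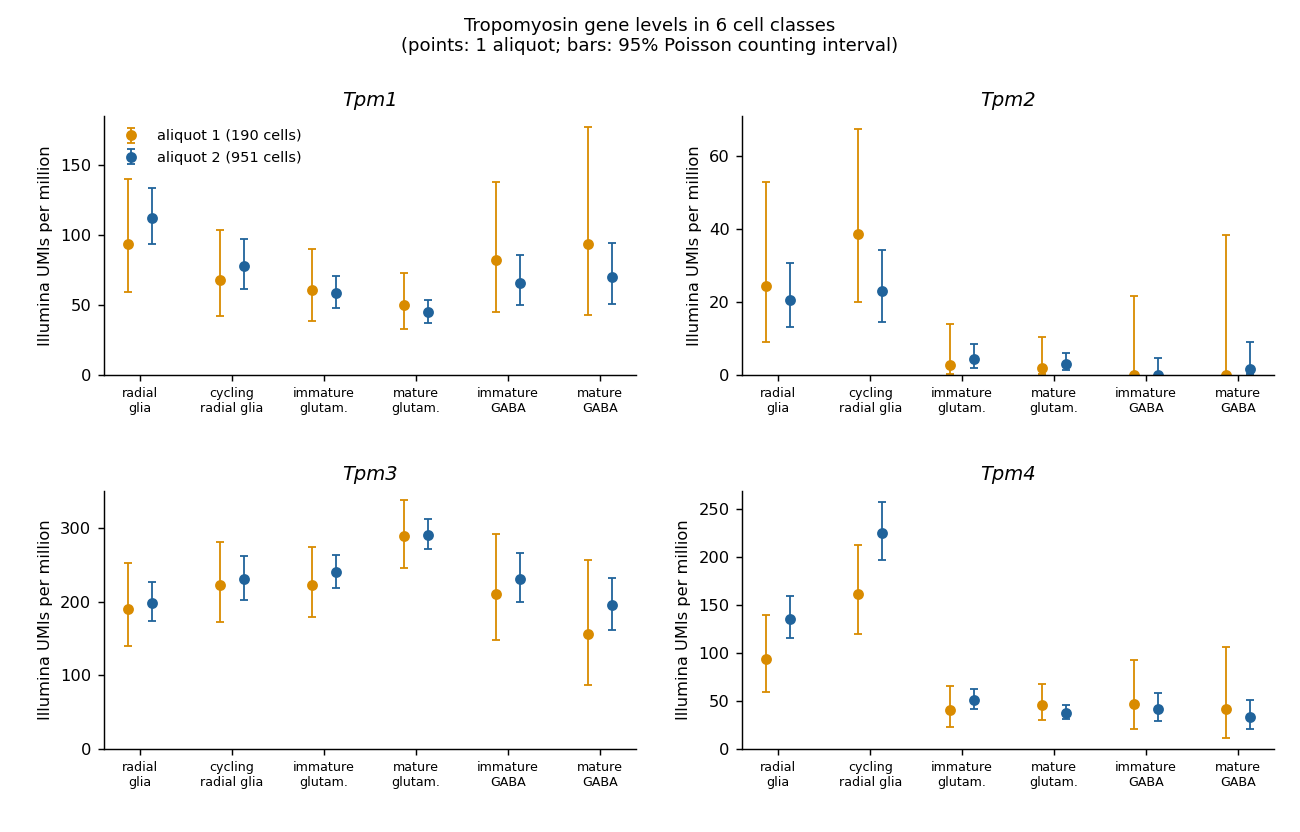
Illumina CPM (counts-per-million) of each tropomyosin gene in 6 cell classes, with 1 point per aliquot and 95% Poisson counting intervals as bars. Tpm2 and Tpm4 are high in both radial glia classes and low in every neuronal class, Tpm3 is highest of these 6 in mature glutamatergic-like cells at 289 and 291, and Tpm1 differs less between classes.

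The first comparison asked which family members differ between neurons, averaged over the glutamatergic-like and GABAergic-like classes, and radial glia. Whether these neurons descend from these radial glia was not tested. Tpm1, Tpm2 and Tpm4 were lower in neurons and Tpm3 was not called. All genes were fitted together (edgeR quasi-likelihood test on summed counts, Benjamini-Hochberg adjustment over 8366 genes), and in this comparison 43.9% of all genes tested were called at an adjusted p below 0.05, beside 3 of the 4 members. Tpm4 fell by 1.95 on the log2 scale (SE 0.15, adjusted p = 9.1e-13 in edgeR), and its summed level was 168 CPM in radial glia and 42.2 CPM in neurons, 3.99-fold lower in neurons. Tpm2 had 23.8 CPM in radial glia and 2.62 CPM in neurons, 9.07-fold lower (edgeR adjusted p = 1.1e-07). Its fitted log2 difference of -4.35 ± 0.57 averages in a class with no Tpm2 UMI and therefore depends on the prior count of the fit.

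Tpm1 was lower in neurons by less, with a log2 difference of -0.56 ± 0.15 (edgeR adjusted p = 0.0025) and summed levels of 92.2 CPM in radial glia and 55.5 CPM in neurons. This call was lost in 4 of 21 alternatives. Without aliquot 2 of the radial glia-like cells the difference was -0.43 (adjusted p = 0.107), without aliquot 2 of the cycling cells -0.47 (0.0751), with DESeq2 -0.58 (0.0507), and without the 11 cells that carry markers of other cell types -0.36 (0.0669). Those cells held 15 of the 149 Tpm1 UMIs of radial glia-like cells and 26 of the 99 of cycling cells, and in the latter Tpm1 stood at 601 CPM in them and 57.3 CPM in the rest. Tpm3 had a log2 difference of 0.08 ± 0.12 (edgeR adjusted p = 0.614), with 213 CPM in radial glia and 255 CPM in neurons, and its sign turned to -0.03 without aliquot 2 of the mature GABAergic-like cells.

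Between the 2 radial glia-like classes, cycling cells had more Tpm4, by 0.74 ± 0.22 on the log2 scale (edgeR adjusted p = 0.0247), where 11.5% of all genes were called. The call was kept in only 6 of 13 alternatives. Adjusted p was 0.363 with DESeq2, 0.0747 without the cells whose barcode occurs in both aliquots, 0.0512 at the finer clustering and 0.0563 when members were kept among the clustering genes. Leaving out aliquot 2 of the cycling cells gave 0.41 (0.561), and leaving out aliquot 1 or 2 of the radial glia-like cells gave 0.58 (0.155) and 1.10 (0.0654). Tpm1 differed by -0.48 ± 0.24 (0.214), Tpm2 by 0.44 ± 0.60 (0.744) and Tpm3 by 0.24 ± 0.19 (0.485), none of them called. Tpm1 was called lower in cycling cells without the 11 cells with markers of other cell types (-0.75, adjusted p = 0.0476 in edgeR) and with members kept among the clustering genes (-0.73, 0.0436).

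No tropomyosin gene was called between mature and immature neurons, where 4.46% of all genes were. The log2 differences were -0.14 for Tpm1, 1.42 ± 1.26 for Tpm2, -0.00 for Tpm3 and -0.29 for Tpm4, with edgeR adjusted p between 0.597 and 1.00. Among mature neurons, GABAergic-like were set against glutamatergic-like cells, with 9.47% of all genes called, and Tpm3 was lower in GABAergic-like cells by 0.77 on the log2 scale (SE 0.19, edgeR adjusted p = 0.0067). That call was lost with DESeq2 (0.0801), without aliquot 1 of the mature GABAergic-like cells (0.0771) and without aliquot 2 of the mature glutamatergic-like cells (0.0793). Tpm1 was 0.59 ± 0.27 higher there without passing the threshold (0.203), and Tpm2 and Tpm4 differed by -0.99 and -0.30 (0.780 and 0.715).

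**Figure D2:**
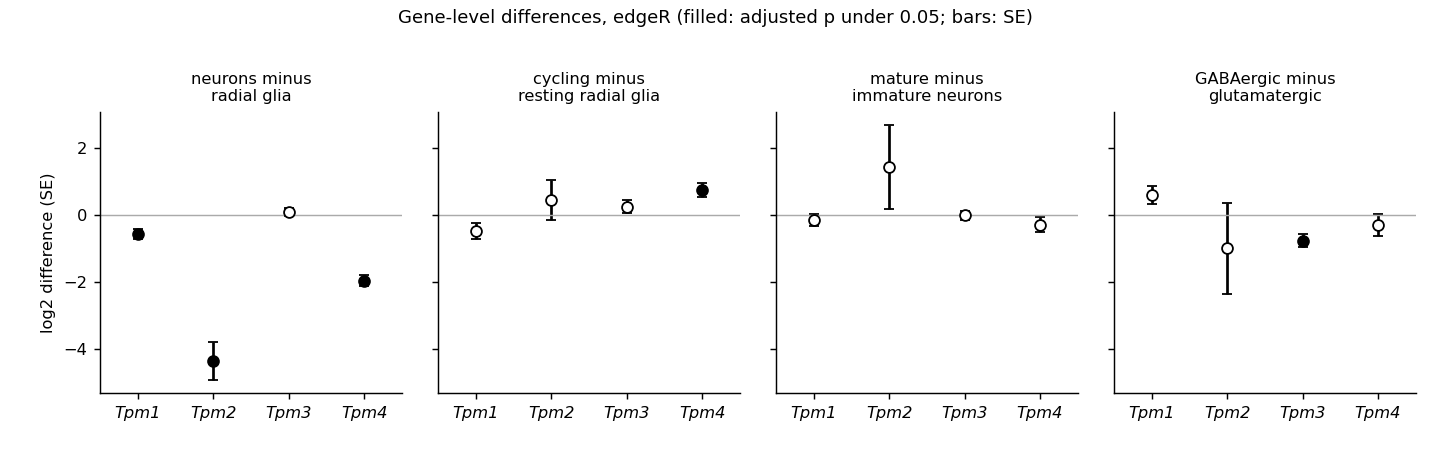
Gene-level log2 differences of the 4 tropomyosin genes in the 4 comparisons, with standard errors as bars and filled points for an edgeR adjusted p under 0.05. In neurons minus radial glia, Tpm1 (-0.56), Tpm2 (-4.35) and Tpm4 (-1.95) are filled below 0 and Tpm3 (0.08) is open, and the only other filled points are Tpm4 in cycling cells (0.74) and Tpm3 in GABAergic-like cells (-0.77).

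Nanopore reads assigned 325 Tpm1, 67 Tpm2, 1757 Tpm3 and 508 Tpm4 UMIs to single annotated isoforms. Tpm1 was the most diverse gene, with 13 isoforms of which 5 reached at least 5% of its UMIs in all cells or in a class, and the other 8 held 2 to 15 UMIs each and 49 together. Tpm1-203 (ENSMUST00000050905) is long and joins exons 1a, 6a and 9a, and Tpm1-205 (ENSMUST00000113685) joins 1a, 6b and 9a, both with 284 codons. Tpm1-204 (ENSMUST00000113684) is short and joins 1b, 6a and 9a, Tpm1-206 (ENSMUST00000113686) joins 1b, 6b and 9b, and Tpm1-209 (ENSMUST00000113690) joins 1b, 6b and 9c in 245 codons, the exon combination of the brain tropomyosin TmBr3. Tpm3 used Tpm3-201 (ENSMUST00000029549; 1b, 6a, 9d) and Tpm3-203 (ENSMUST00000119158; 1b, 6b, 9c), and 3 further isoforms held 19 UMIs. Tpm2 used 3 isoforms and Tpm4 only Tpm4-201 (ENSMUST00000003575; 1b, 6, 9d).

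Tpm1-209 was found in neurons and not in radial glia. In neurons it had 3 and 17 UMIs (aliquots 1 and 2) in immature glutamatergic-like, 8 and 30 in mature glutamatergic-like, 1 and 9 in immature GABAergic-like and 5 and 10 in mature GABAergic-like cells. Both radial glia classes had 0 UMIs in both aliquots, which allows a share of up to 2.19% of their 137 Tpm1 UMIs. All 8 neuronal sums thus lay above all 4 radial glia sums, the lowest neuronal sum by only 1 UMI. The sums come from unequal numbers of cells. The 83 neuronal UMIs give 19.7 Nanopore CPM, 10.4 times the 1.90 CPM that 3 UMIs over radial glia would give. They came from 76 of 880 neurons, and the highest count in a cell was 3.

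Tpm1-204 was found mainly in radial glia. It had 9 and 16 UMIs in radial glia-like and 5 and 17 in cycling cells, and 2 and 11 over all neurons. This is 34.3% of the Tpm1 UMIs of radial glia (26.4 to 42.9%) and 7.03% of those of neurons (3.79 to 11.7%). Tpm1-203 had 1 and 14 UMIs in radial glia-like cells and 0 in every other class, in 10 cells in all. Its 15 UMIs give 9.48 Nanopore CPM over radial glia, beside the 0.712 CPM that 3 UMIs over the neurons would give. It was named only for its share in radial glia-like cells, so this difference from neurons is a description. Tpm1-205 was present in both groups, with 39 UMIs in radial glia (28.5%) and 41 in neurons (22.2%), and Tpm1-206 had 4 UMIs in radial glia (2.92%) and 33 in neurons (17.8%).

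The isoform usage test asks whether isoforms of a gene change differently from each other. Under the expression filter of edgeR 610 genes entered it, with too few tropomyosin isoforms to test, so results are given for isoforms with at least 10 UMIs (3286 genes). Usage of Tpm1 differed between neurons and radial glia (edgeR diffSpliceDGE, adjusted p = 7.8e-19), where 9.46% of the genes tested were called. Of single isoforms, of which 3.03% were called, Tpm1-209 was higher in neurons relative to the rest of the gene (adjusted p = 8.8e-12 in edgeR) and Tpm1-204 lower (log2 difference -2.65, 8.9e-06), both in all 20 alternatives tried. Tpm1-206 was higher (2.37, 0.0388), a call kept in 9 of 20 alternatives, with values from 1.25 to 3.39. Tpm1-205 differed by -0.43 (0.891), and Tpm1-203 was not called (1.00) in this contrast, which averages a class that held all its UMIs with one that held none.

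Sorted by last coding exon, radial glia used mostly 9a, and neurons used 9c beside 9a. Exon 9a ended 85.3% of the Tpm1 UMIs of radial glia-like cells (64 of 75) and 73.1% of those of cycling cells (38 of 52). Exon 9c ended none of these 127, which allows up to 2.36%. In neurons 9c ended 27.0% in immature GABAergic-like (10 of 37), 47.1% in immature glutamatergic-like (24 of 51), 15 of 30 in mature GABAergic-like and 59.7% in mature glutamatergic-like cells (40 of 67). Exon 9a still ended 29.7% of the neuronal Tpm1 UMIs (55 of 185), and in immature GABAergic-like cells it was more frequent than 9c, at 48.6% (18 of 37). The neurons include 51 cells with raised intermediate progenitor markers, and their part in the 9a share was not tested. Over all neurons the share of 9c was 48.1% (40.7 to 55.6%), with 51.5% in aliquot 1 and 47.4% in aliquot 2. Summed over isoforms with the same stop codon, 9c was higher in neurons (adjusted p = 2.0e-12 in edgeR), 9a lower (log2 difference -1.47, 8.6e-05) and 9d lower (-1.95, 0.0466), while 9b did not pass (1.58, 0.210). The 9d difference was seen in aliquot 2 alone, where 18 of 105 radial glia UMIs ended in 9d, against 0 of 22 in radial glia and 1 of 33 in neurons of aliquot 1. In this test of 992 genes, 9.38% were called.

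**Figure D3:**
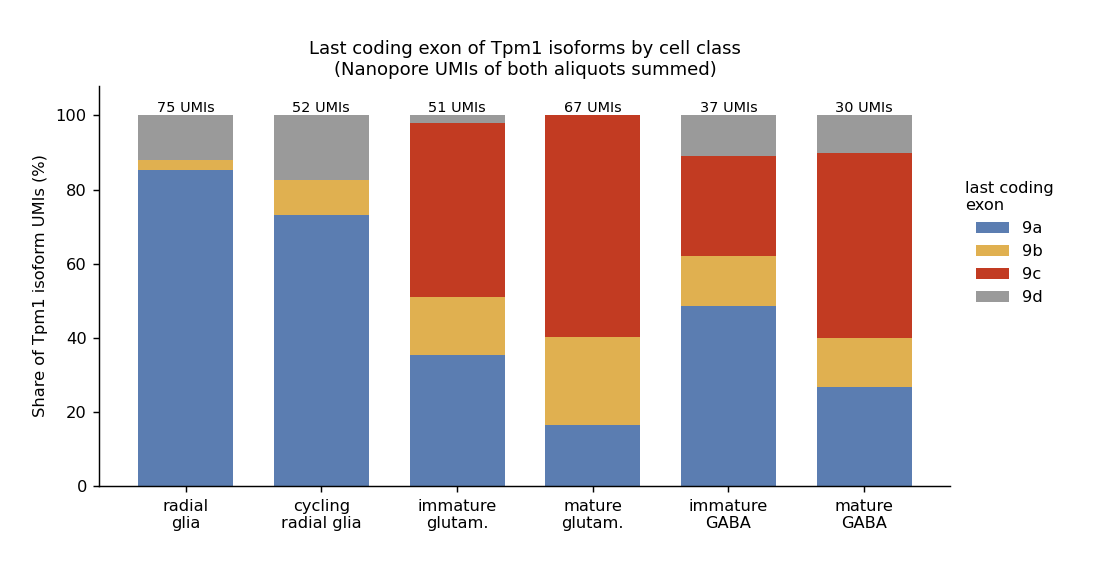
Share of Tpm1 isoform UMIs by last coding exon in 6 cell classes, both aliquots summed, with the number of UMIs above each bar. Exon 9a makes up 85.3% and 73.1% in the 2 radial glia classes, and exon 9c appears only in the 4 neuronal bars, from 27.0% to 59.7%.

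Shares of the internal pair, for which no test was run, differed as well. Exon 6b was in 44.1% of the Tpm1 UMIs of radial glia (35.3 to 53.2% of 127) and in 89.2% of those of neurons (83.8 to 93.3% of 185), with aliquot values of 31.8 and 46.7% in radial glia and 90.9 and 88.8% in neurons. Short starts (1b) made up 50.4% in radial glia and 77.3% in neurons. Each of the 83 neuronal Tpm1-209 UMIs holds 1b, 6b and 9c, so the 6b and 1b shares are not independent of the 9c share. By start codon, usage of Tpm1 differed between the groups (adjusted p = 0.0101 in edgeR), although neither start passed alone (adjusted p = 0.0983 for 1a, lower in neurons, and 0.528 for 1b). The cells with markers of other types touch these shares. They held 11 of the 39 Tpm1-205 UMIs of radial glia, 1 of Tpm1-206 and none of Tpm1-203, Tpm1-204 or Tpm1-209. Without them, and so without their UMIs of the unnamed Tpm1 isoforms as well, the share of 6b in radial glia was 33.6%. All of these cells were in aliquot 2, and their part in the 9d difference of aliquot 2 was not tested.

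**Figure D4:**
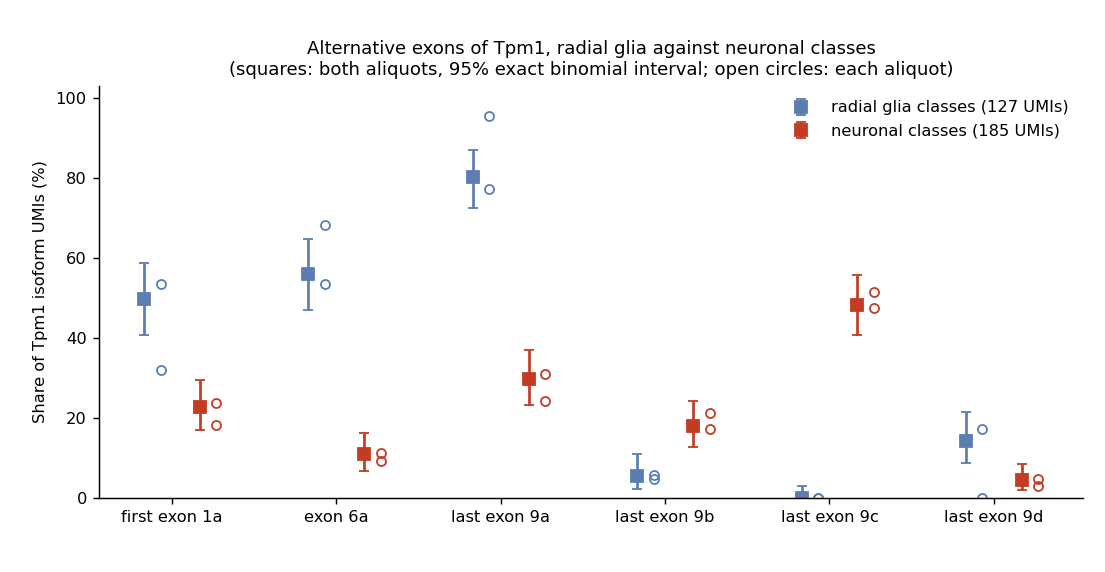
Share of Tpm1 isoform UMIs with each alternative exon in radial glia (127 UMIs) and neurons (185 UMIs), as squares with 95% exact binomial intervals for both aliquots and open circles for each aliquot. Exons 1a, 6a and 9a are higher in radial glia and 9b and 9c in neurons in both aliquots, with 9c at 0 against 48.1%, 9d is higher in radial glia in aliquot 2 alone, and the aliquots of radial glia lie farther apart than those of neurons.

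Tpm3 made a smaller change of the same kind. Tpm3-201, which ends in 9d, held 98.1% of the Tpm3 UMIs of radial glia and 92.9% of those of neurons. Tpm3-203, which ends in 9c, had 0 and 1 UMI in radial glia-like cells and 0 and 1 in cycling cells. In neurons it had 3 and 7 UMIs in immature glutamatergic-like, 11 and 47 in mature glutamatergic-like, 0 and 5 in immature GABAergic-like and 1 and 6 in mature GABAergic-like cells. The sums overlapped only where a neuronal sum of aliquot 1 held 0 or 1 UMI. Exon 9c thus ended 0.5% of Tpm3 UMIs in radial glia (2 of 421) and 6.1% in neurons (80 of 1313), with 8.6% in mature glutamatergic-like, 7.2% in mature GABAergic-like, 3.1% in immature GABAergic-like and 2.6% in immature glutamatergic-like cells.

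Usage of Tpm3 differed between neurons and radial glia (adjusted p = 0.0053 in edgeR), with Tpm3-203 higher in neurons by 3.07 on the log2 scale (0.0033) and Tpm3-201 at -0.07 (1.00). These calls were lost when aliquot 2 of 1 class was left out. For usage, the adjusted p became 0.151 without the radial glia-like, 0.0660 without the cycling, 0.959 without the immature GABAergic-like and 0.0941 without the mature GABAergic-like cells of that aliquot. Both 9c UMIs of radial glia came from cells with markers of other types, so that the count without these cells was 0.

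**Figure D5:**
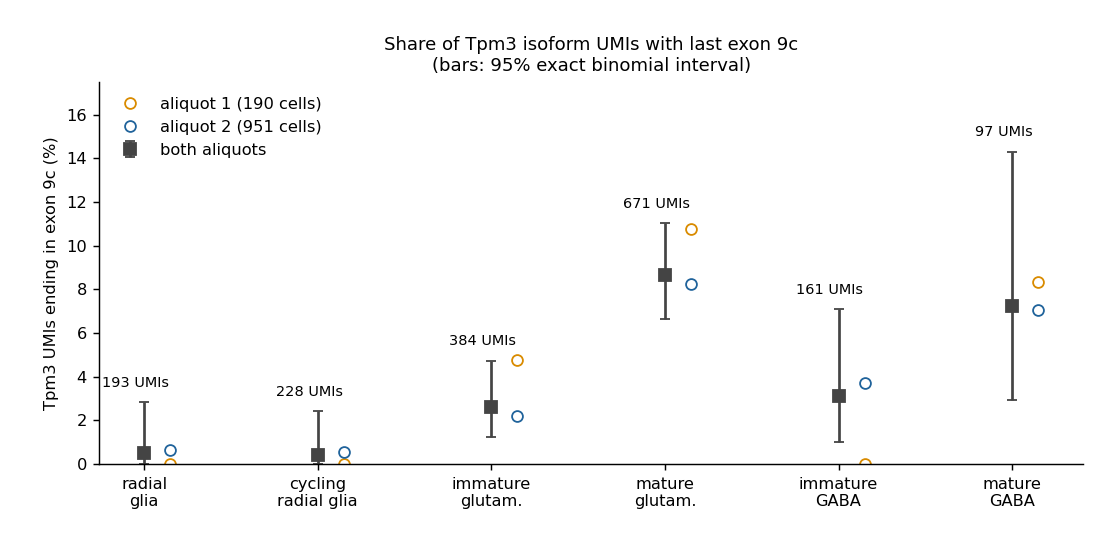
Share of Tpm3 isoform UMIs that end in exon 9c in 6 cell classes, with squares and 95% exact binomial intervals for both aliquots, open circles for each aliquot and the number of UMIs above. The share is 0.5% or less in radial glia classes, highest in mature glutamatergic-like cells (8.6%, 6.63 to 11.03%), whose interval lies above that of immature glutamatergic-like cells (2.6%, 1.26 to 4.74%). These intervals hold counting error only. Tpm3 usage was not called between mature and immature neurons (edgeR diffSpliceDGE, adjusted p = 0.446).

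Tpm2 and Tpm4 have no annotated 9c exon among the isoforms seen. Tpm2-202 (1a, 6b, 9a) held 46 of the 54 Tpm2 UMIs of radial glia and all 11 of neurons. Tpm2-201 (1a, 6a, 9a) had 4 UMIs in 4 radial glia cells. Tpm2-203 (1a, 6a, 9d) had 4 UMIs, all in 1 radial glia-like cell that carried markers of other cell types. Tpm4-201 followed its gene, with 41 and 268 UMIs in radial glia and 27 and 170 in neurons. Over the whole family, 9c ended 2 of 911 UMIs in radial glia (0.22%, 0.027 to 0.79%) and 169 of 1706 in neurons (9.91%, 8.53 to 11.4%), in the neurons of aliquot 1 12.1% and in those of aliquot 2 9.51%.

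Single cells could rarely be read for isoform choice. A Tpm1 isoform UMI was found in 77 radial glia and 162 neurons, and 2 or more in 25 and 21 of them. Among these, 8 radial glia and 8 neurons carried more than 1 last exon, and 9a and 9c stood together in 6 neurons and in no radial glia cell.

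The other comparisons gave no tropomyosin call for isoform usage. Between cycling and radial glia-like cells, where 0.578% of genes were called, the adjusted p was 0.171 for Tpm1 and 0.917 for Tpm3. Between mature and immature neurons (0.456% called) it was 0.716 and 0.446, and for the GABAergic-like against the glutamatergic-like mature cells (0.304% called) 0.881 and 0.985. The 9c shares of the mature classes were higher than those of the immature classes with the same transmitter name. The difference did not pass the edgeR test. Log2 differences by stop codon were 0.56 for Tpm1 9c (1.00) and 1.48 for Tpm3 9c (0.789). Tpm1-203 had 15 UMIs in radial glia-like and 0 in cycling cells, which did not pass for the single isoform (0.259).

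A finer clustering separated 87 cells with intermediate progenitor markers such as Eomes, the cells that stand between radial glia and glutamatergic neurons. The most raised genes of this cluster also included the microglia markers Tyrobp, C1qa and C1qb. Its shares are therefore those of a mixed cluster. Of the 24 Tpm1 UMIs of the 87 cells, 4 ended in 9c (16.7%, 4.7 to 37.4%) and 18 in 9a (75.0%), while 12 of 24 held 6b. In the 69 radial glia-like cells that remained, 0 of 65 UMIs ended in 9c. Immature glutamatergic-like cells of the same clustering had 9a in 21.6% (9.83 to 38.2%) and 6b in 86.5% (71.2 to 95.5%) of 37 UMIs. The intervals of the 87 cells, 53.3 to 90.2% for 9a and 29.1 to 70.9% for 6b, did not overlap these. These shares are a description, with no test.

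The long reads recovered the family unevenly. Relative to Illumina UMIs of the same cells, Nanopore isoform UMIs amounted to 49.6 and 49.4% for Tpm1 in the aliquots, 70.0 and 80.3% for Tpm2, 68.3 and 72.0% for Tpm3 and 53.5 and 69.1% for Tpm4, against 57.5 and 61.0% for all genes. Tpm1 lay below all genes and Tpm3 above in both aliquots. In a test of the 4 libraries, where 50.5% of 9841 genes were called, Tpm3 was higher on Nanopore (log2 0.43 ± 0.09, adjusted p = 0.0105 in edgeR). Tpm1 (-0.08 ± 0.11, 0.594), Tpm2 (0.53 ± 0.28, 0.164) and Tpm4 (0.28 ± 0.17, 0.219) were not called. With the aliquot as a block, Tpm2 (0.0247) and Tpm4 (0.0020) also passed, and without Nanopore aliquot 2 the Tpm4 difference was -0.03 (0.923). The Tpm1 ratio was 55.2% in radial glia and 46.0% in neurons, so isoform shares cover a smaller part of the Tpm1 UMIs of neurons, and Tpm1-209 (2890 bases) is longer than Tpm1-204 (887 bases) and Tpm1-203 (1259 bases). The part of these differences in the isoform shares was not tested.

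Other genes of the actin filament were followed as lists. Of 3 actins tested of 6 listed, 2 were higher in neurons, the cytoplasmic actins Actb (log2 0.83 ± 0.08) and Actg1 (0.74 ± 0.07). Actb stood at 1584 and 2092 CPM in radial glia-like cells and 4748 and 4710 CPM in mature glutamatergic-like cells. Among tropomodulins, caldesmon and calponins, 4 of 11 were tested, with Tmod2, the neuronal cap of pointed filament ends, higher (1.10 ± 0.18, edgeR adjusted p = 4.8e-06) and the calponin Cnn3 lower (-0.75 ± 0.12). Of 14 cofilin and filament turnover genes tested, 6 were higher and 2 lower, among them Coro1a (1.56) and the actin-sequestering Tmsb10 (1.45) higher and Cap2 lower (-1.21). Non-muscle myosin II chains, the motors that tropomyosins admit to filaments, had 1 of 5 higher (Myl12b, 0.78) and 2 lower (Myl9, -3.79, and Myl12a, -1.71). Of 15 Arp2/3 and formin genes, 6 were higher, Arpc5 (0.98) among them, and 2 lower, Diaph3 (-3.17) and Arpc1b (-2.14). These counts stand beside the 43.9% of all genes called in this comparison, and several of the lists lie near that share. The medians of the 5 lists were 0.83, -0.19, 0.17, 0.00 and 0.38, beside -0.01 over all genes. The genes named here had edgeR adjusted p of at most 0.0432. None of 8 troponin genes, the calcium switch of muscle tropomyosin, passed the expression filter.

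In cycling cells, Actb was higher than in radial glia-like cells (0.79), as were Pfn2, an actin monomer binder, and Tmsb10 (0.85). Of 4 tropomodulin, caldesmon and calponin genes, 3 were lower, Cnn3 (-1.26), Tmod2 (-1.21) and Cald1 (-0.97), where 11.5% of all genes were called. Myl9 (-3.04), Myl6 (-0.79) and Arpc1b (-1.27) were lower too. Myl9, a smooth-muscle light chain, stood at 48.6 and 73.6 CPM in radial glia-like and 6.44 and 7.95 CPM in cycling cells. In mature neurons Cald1, which binds tropomyosin-coated filaments, and Cnn3 were lower than in immature ones (-0.89 and -0.87). In mature GABAergic-like cells, Cald1 (1.16) and Pfn2 (1.08) were higher than in mature glutamatergic-like cells. Tmsb4x (-1.37), Actg1 (-0.50), Arpc5 (-0.79), Diaph3 (-2.85) and Myl12b (-0.65) were lower there. Diaph3 had 0 and 2 UMIs in the mature GABAergic-like sums, against 13 and 47 in the mature glutamatergic-like ones. The size of its difference therefore depends on the prior count of the fit. Adjusted p of the genes named for these 3 comparisons was at most 0.0367 in edgeR, and the named genes are those with the largest called changes in each list.

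As a description over the 12 sums of 6 classes and 2 aliquots, the genes with the level pattern most like Tpm4 among 3008 genes were Ccdc34, Cenpf and Nap1l1 (Pearson r 0.97, 0.97 and 0.96). For Tpm2 they were Rfc1, Tubb4b and Impdh2 (0.97, 0.97 and 0.96), for Tpm1 Glul, Fam96a and Sh3glb1 (0.95, 0.91 and 0.91) and for Tpm3 Opcml, Msra and Ndufa10 (0.90, 0.90 and 0.88). Within the family, Tpm2 and Tpm4 were alike (0.90), whereas Tpm3 had 0.07 with Tpm2, 0.06 with Tpm4 and -0.66 with Tpm1. The sums share libraries and cell classes, so these values carry no test.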

How the data were processed

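UMI counts per gene (Illumina) and per isoform (Nanopore) were deposited without normalization. The authors made the Illumina counts with Cell Ranger 2.0 on mm10 (GRCm38, per the submitters' processing notes), and the Nanopore counts with minimap2 and Sicelore, keeping UMIs that matched 1 Gencode vM18 isoform. Exons were read from Gencode vM21 (31969 of 31986 isoforms matched without version). UMIs without an isoform were not used here.

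Cells with at least 5% of genes detected were integrated and clustered in Seurat 5.3.0 (resolution 0.8, tropomyosin and listed genes left out) and clusters named from markers. Scrublet (scanpy 1.11.5) called 4 and 5 doublets, which were kept. Counts were summed per class and aliquot and tested with edgeR 4.0.16 (TMM, filterByExpr, glmQLFTest, diffSpliceDGE, adjusted p below 0.05). DESeq2 1.42.0, limma 3.58.1, left-out aliquots and other cell sets were alternatives. The scripts were tested on simulated data. Shares have 95% exact binomial intervals. The share that a count of 0 allows was taken as that of 3 UMIs, not from these intervals.

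The labels give each aliquot the same cell number on both platforms, and same-numbered sums deviated together (r 0.171 to 0.374 for genes, 0.0335 to 0.165 for isoforms, 0.596 between platforms), and the aliquot served as a replicate block in an alternative fit. The pairing comes from the labels. Leaving out cells with markers of other types or with shared barcodes, and joining the 10 UMI minimum to the other alternatives, were chosen after seeing the data. Named were all members, isoforms with at least 5% of the UMIs of a gene (or 5% and 10 UMIs in a class), up to 3 called genes per list and comparison with the same direction in both aliquots, and 3 look-alikes per member. Members and lists were chosen with earlier results of these data known.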

Additional observations from a re-analysis of the deposited data

How the results depend on the processing

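Of 554 recomputed tropomyosin results, 505 kept their direction and their side of the threshold. Signs turned only for differences that were not called. Tpm3 in neurons against radial glia ranged from -0.0252 (without mature GABAergic-like replicate 2) to 0.142 over left-out replicates. In mature against immature neurons, Tpm3 was 0.0036 with the replicate block, 0.0154 with DESeq2 and 0.0297 without shared barcodes, and ranged from -0.187 to 0.0703 over left-out replicates, and Tpm2 was -0.40 at resolution 1.2 and ranged from -0.21 to 1.66. Tpm4 between platforms ranged from -0.032 to 0.482.

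Genes called moved from 958 to 1685 (cycling), from 373 to 804 (mature) and from 792 to 1263 (GABAergic) with the replicate block, and to 299, 161 and 356 with DESeq2. Leaving out replicates gave 2867 to 4021 for neurons, 234 to 833, 150 to 331 and 325 to 662. For isoform usage, 152 genes were called in neurons, 20, 22 and 10 in the others. A minimum of 10 UMIs gave 311 for neurons, the replicate block gave 38, 41 and 24 for the others, stop codon sums gave 33, 6, 10 and 2, start codon sums 25, 5, 2 and 3, and leaving out replicates 76 to 205, 1 to 20, 5 to 25 and 0 to 10 (with none called by edgeR, 65 genes had an unadjusted p below 0.05). Between platforms 4969 genes were called, 3064 with DESeq2 and 3643 to 5361 without 1 library. Apart from Tpm2 and Tpm4 between platforms, the replicate block changed no tropomyosin call.

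In radial glia, single aliquots gave 77.1 to 95.5% for Tpm1 9a, 31.8 to 46.7% for 6b, 46.7 to 68.2% for 1b and 0 to 0.585% for Tpm3 9c. Without cells with markers of other types, added after the data were seen, 6b was 33.6% and Tpm3 9c 0. In neurons they gave 47.4 to 51.5% for Tpm1 9c. The cause of these moves was not tested. With 127 Tpm1 isoform UMIs in radial glia, a count of 0 there still allows a share of up to about 2.36%.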
